A study of Macaca mulatta with 7 samples.

Results

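The 10 genes described here act in antigen presentation, complement and leukocyte identity: CD74, B2M, C1QA, C1QB, LCK, IL7R, CCR7, CSF3R, PAX5 and KLRD1. They are 10 of 18282 genes measured in total RNA from rhesus macaque (Macaca mulatta) sperm. They were picked by name, from earlier results of these data, for their sense levels in the libraries Control 4 and Maltreated 3. Their levels are therefore a description and carry no test. The series compares 4 Control animals with 3 Maltreated animals, and its title names early life stress and the germline. The labels state no strain, no other treatment and no detail of the maltreatment. The animals were 5.67 to 5.92 years old, the sperm of both groups were purified on a PureSperm 40/80 density gradient, and the RNA was extracted with TRIzol. Each animal gave 1 library, so any p-value measures the spread between these 7 libraries.

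Antigen-presenting cells such as macrophages, dendritic cells and B cells load peptides onto MHC class II molecules with the help of the CD74 chaperone, while nearly all nucleated cells display peptides on MHC class I molecules, whose light chain is B2M. C1q, the recognition unit of the classical complement pathway, is built from chains encoded by C1QA, C1QB and C1QC and is made mainly by macrophages. LCK, IL7R, CCR7, CSF3R, PAX5 and KLRD1 are textbook genes of T cells, lymphocytes, granulocytes, B cells and natural killer cells, and semen can hold leukocytes beside sperm.

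Depth ran from 5316383 sense counts in Control 4 to 30715268 in Maltreated 1, with 10690315 in Maltreated 3. A count is a read overlapping an annotated exon on the strand of the gene, and the count of a gene is the sum over its exons. CPM is that count per 1000000 sense counts of the library. The labelled cell type was checked with sperm transcripts: the protamine PRM2 stood at 29233 to 72127 CPM, PRM1 at 5110 to 9222 CPM and the transition protein gene TNP1 at 4670 to 9130 CPM. In such bulk RNA, fewer cells of a type and less RNA per cell cannot be told apart.

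Control 4 held the highest level of 9 of the 10 genes, and Maltreated 3 held the highest level of the remaining one, B2M. A gene was called high in one of these libraries when its CPM was at least 4 times the highest of the other 5 libraries and it had at least 10 counts. A library with fewer than 3 counts was set to the level of 3 counts for this ratio. By this measure 9 of 10 genes were high in Control 4, where 15.2% of all genes with 10 counts met the same measure. In Maltreated 3, 3 of 10 were high, beside 5.86% of all genes with 10 counts there. CD74, B2M and IL7R were high in both libraries, beside 2.80% of all genes with 10 counts in both. Since the members were chosen for these levels, nothing is read from these counts. The gene lists below include genes with fewer than 10 counts, so these percentages have another base than the lists. PAX5 lay just outside the threshold in Control 4 at 3.21 times, and C1QA at 4.22 times and KLRD1 at 4.46 times lay just inside it.

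**Figure D1:**
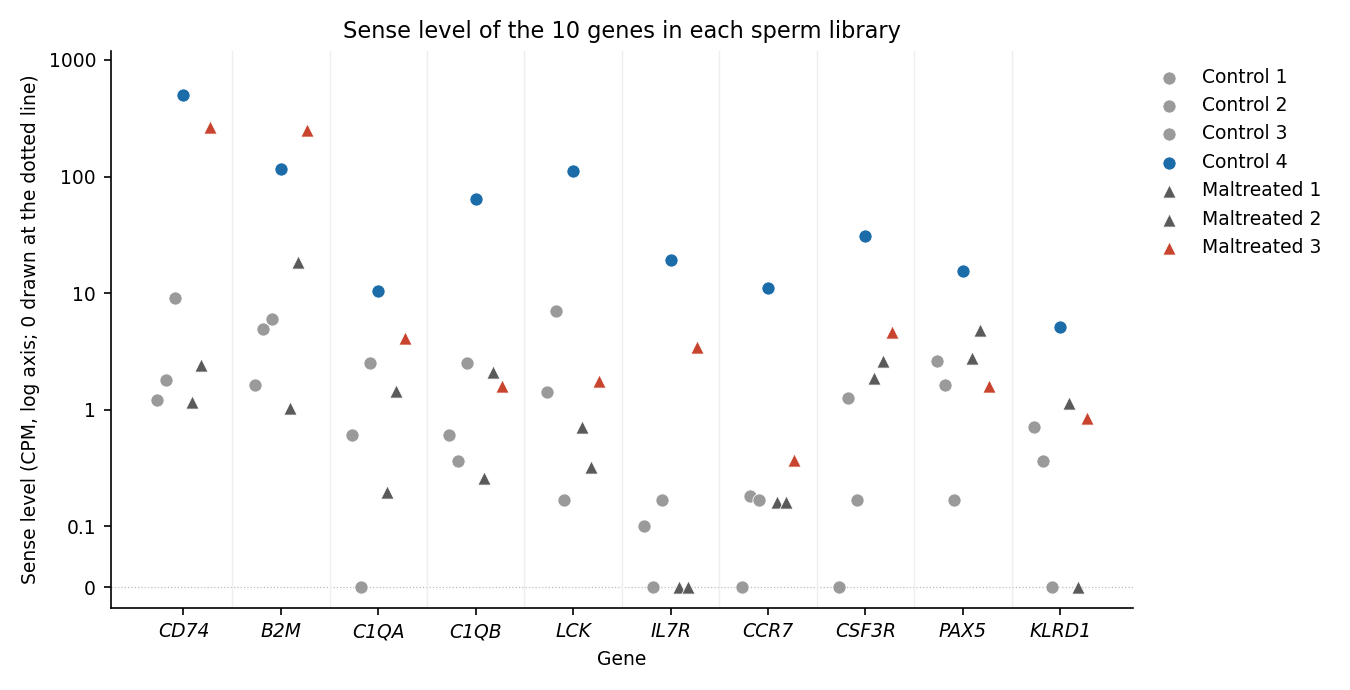
Sense level in CPM on a log axis (vertical) of the 10 genes (horizontal), with 1 point per library, circles for Control and triangles for Maltreated. Control 4 (blue) and Maltreated 3 (red) both stand above the other libraries (grey) for CD74 and B2M, while for C1QB and LCK only Control 4 does, at 64.1 and 113 CPM.

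CD74, the invariant chain that guides MHC class II molecules to the endosome, was the most abundant of the 10 genes in Control 4. It had 12, 10, 55 and 2670 counts in Control 1 to 4 and 36, 15 and 2829 counts in Maltreated 1 to 3. Its level was 502 CPM in Control 4 and 265 CPM in Maltreated 3, against 1.17 to 9.16 CPM in the other 5 libraries. The groups overlapped, with 1 high library in each. Control 4 stood 54.8 times above the next library, Control 3 (counting interval 42.0 to 73.0, 95%, exact binomial), and Maltreated 3 stood 28.9 times above it (22.1 to 38.4). Control 4 exceeded Maltreated 3 by 1.90 times (1.80 to 2.00). All such intervals cover counting error only and take each count as a separate read. A read counted on more than 1 exon of a gene would make them too narrow.

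The reads of CD74 (chr5:148269722-148280657, minus strand, 9 exons, in the coordinates of the files, with no build given) reached every exon in both high libraries. The counts per exon ran from 120 to 577 in Control 4 and from 150 to 717 in Maltreated 3. They covered 92.1% and 97.9% of the exon bases. In the other 5 libraries 17.6 to 34.9% of the exon bases were covered. The 2 high libraries divided their counts differently among the exons: exon 8 took 16.9% (15.5 to 18.3) of the CD74 counts in Control 4 and 8.41% (7.42 to 9.50) in Maltreated 3.

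Other genes of class II presentation were also high in these 2 libraries. Of 16 further genes on a list of this pathway, 8 were high in Control 4 and 8 in Maltreated 3, and 6 were high in both. These 6 were MAMU-DRA, MAMU-DRB1, MAMU-DPA, MAMU-DQA1 and MAMU-DQB1, which encode class II chains, and LGMN, a lysosomal protease. Of all genes with 10 counts there, 15.2% were high in Control 4, 5.86% in Maltreated 3 and 2.80% in both. MAMU-DRA had 40.3 CPM in Control 4 and 28.7 CPM in Maltreated 3, and at most 1.30 CPM elsewhere. MAMU-DRB1 had 52.9 and 32.5 CPM, and at most 0.195 CPM elsewhere. Class II genes have near-identical copies, so the level of a single MAMU gene is uncertain. The share of the counts of a gene that would remain if every exon held the count of the lowest one is called its even share. LGMN had an even share of 62.9% in Control 4, with 47 counts on its lowest exon, and was not high there on counts above the lowest exon. Without CD74 the list summed to 493 CPM in Control 4 and 584 CPM in Maltreated 3, against 60.3 to 99.7 CPM in the other 5 libraries. Genes that encode no class II chain held much of these sums. LGMN alone had 197 CPM in Control 4 and 182 CPM in Maltreated 3, where the list genes IFI30 and CTSS had 165 and 124 CPM. RFX5, a transcription factor of class II promoters, reached 64.1 CPM in Control 4 with the same 31 counts on each of its 11 exons.

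B2M, the light chain of MHC class I molecules, was the only one of the 10 genes that was higher in Maltreated 3 than in Control 4. It had 16, 27, 36 and 612 counts in Control 1 to 4 and 32, 113 and 2704 counts in Maltreated 1 to 3. The level was 115 CPM in Control 4 and 253 CPM in Maltreated 3, with 18.3 CPM in Maltreated 2 and 1.04 to 6.0 CPM in the remaining 4. The groups overlapped again. Control 4 stood 6.28 times (5.13 to 7.74) and Maltreated 3 stood 13.8 times (11.4 to 16.8) above Maltreated 2. Maltreated 3 exceeded Control 4 by 2.20 times (2.01 to 2.40).

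B2M (chr14:21061748-21068700, plus strand, 4 exons) was read differently at its 5′ end in these 2 libraries. Exon 1, which is 76 bases long, took 20 of 612 counts in Control 4, or 3.27% (2.01 to 5.0). In Maltreated 3 it took 966 of 2704, or 35.7% (33.9 to 37.6). Exon 3 went the other way, with 22.5% (19.3 to 26.1) in Control 4 and 9.02% (7.97 to 10.2) in Maltreated 3.

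Of 18 class I genes beside B2M, 7 were high in Control 4, 8 in Maltreated 3 and 5 in both. The shares of all genes with 10 counts there were 15.2%, 5.86% and 2.80%. MAMU-A, a classical class I heavy chain, had 404 CPM in Control 4 and 478 CPM in Maltreated 3, with at most 66.2 CPM elsewhere, and its level is uncertain because class I genes share sequence. TAP2, a subunit of the peptide transporter and high in both, had 3.01 and 4.30 CPM and at most 0.333 CPM elsewhere. In Control 4 its 16 counts lay on 2 of 12 exons and covered 2.03% of the exon bases. PSME1, a proteasome activator subunit, had 32.2 and 27.5 CPM and at most 2.17 CPM elsewhere. Other peptide loading genes were not high in both. TAP1 was high in Control 4 alone, at 31.8 CPM, with counts on 2 of 11 exons that covered 3.45% of the bases. CALR was high in Maltreated 3 alone, at 187 CPM, and TAPBP, TAPBPL, CANX and PDIA3 in neither. Without B2M the list summed to 920 CPM in Control 4 and 1140 CPM in Maltreated 3, against 263 to 397 CPM in the other 5.

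C1QA and C1QB encode chains of C1q and lie on either side of C1QC, which encodes the third chain, on the plus strand of chromosome 1. C1QB had 6, 2, 15 and 341 counts in Control 1 to 4 and 8, 13 and 17 counts in Maltreated 1 to 3. Only Control 4 was high, at 64.1 CPM against 0.260 to 2.50 CPM in the other 6 libraries, and the remaining Control libraries overlapped with the Maltreated ones. It stood 25.7 times (15.3 to 46.4) above Control 3 and 40.3 times (24.8 to 70.1) above Maltreated 3. C1QA had 6, 0, 15 and 56 counts in Control 1 to 4 and 6, 9 and 44 counts in Maltreated 1 to 3. Its 2 highest libraries were Control 4 at 10.5 CPM and Maltreated 3 at 4.12 CPM, a ratio of 2.56 (1.69 to 3.89). C1QC, which is not one of the 10, had 11 counts in Control 4 and 10 in Maltreated 3, and their ratio of 2.21 had an interval of 0.853 to 5.81.

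The 2 C1q genes held different levels within each of these libraries. Per kb of exon, C1QB stood at 61.6 CPM and C1QA at 9.60 CPM there, and in Maltreated 3 C1QA stood at 3.75 CPM and C1QB at 1.53 CPM. In Control 4 the exons of C1QB (chr1:21300544-21308541) held 46, 197 and 98 counts, and those of C1QA (chr1:21283679-21286746) held 2, 19 and 35. In Maltreated 3 they held 1, 1 and 15 for C1QB and 17, 19 and 8 for C1QA.

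In several other libraries the low C1q counts were equal on every exon. In Control 1 each of the 3 exons of C1QA, C1QC and C1QB held exactly 2 counts, and in Control 3 exactly 5. In Maltreated 2 each held 3 except for C1QB exon 3, which held 7, and Control 2 held no count in C1QA and 2 in C1QB, both on exon 2. The same 2 counts stood on each of 22 exons in a row in Control 1, from EPHA8, an ephrin receptor gene upstream of C1QA, to the end of C1QB. In Control 3 the 5 counts stood on 23 exons of 5 genes in a row. Control 4 and Maltreated 3 also had such a stretch through the C1q genes. In Control 4, 28 exons of 6 genes in a row held at least 2 counts, and 20 of them held exactly 2. In Maltreated 3, 44 exons of 6 genes in a row held at least 1 count, and 24 of them held exactly 1. The 2 counts on C1QA exon 3 in Maltreated 1 covered all of its 851 bases. An equal count on every exon of several neighbouring genes was therefore taken as a measurement of its own beside each level. The even share was 10.7% for C1QA and 40.5% for C1QB in Control 4.

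Of 19 further complement components, 2 were high in Control 4: C1S and MASP2, proteases of the classical and lectin pathways. In Maltreated 3, 2 were high: C7 and CFP, a terminal component and properdin. The shares of all genes with 10 counts there were 15.2% and 5.86%, and the 19 include genes with fewer counts. The even share was 80.9% for MASP2 and 100% for C7 in these libraries. On counts above the lowest exon C1S and C7 were no longer high, while MASP2 and CFP were. Without the 2 C1q genes the components summed to 95.4 CPM in Control 4 and 91.3 CPM in Maltreated 3, against 17.5 to 55.4 CPM elsewhere.

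LCK, the Src family kinase that starts T cell receptor signalling, had the most even counts of the 10 genes in Control 4. It had 14, 39, 1 and 599 counts in Control 1 to 4 and 22, 2 and 19 counts in Maltreated 1 to 3. Only Control 4 was high, at 113 CPM against 0.167 to 7.05 CPM elsewhere, and without it the groups still overlapped. Every exon of LCK (chr1:31101763-31135048, plus strand, 13 exons) held 46 or 47 counts in Control 4, and every base was covered. The even share was 99.8%, and 1 count of 599 remained when each exon was reduced to its count above the lowest exon.

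The same count ran on through the genes upstream of LCK. In Control 4, 73 consecutive plus-strand exons of 9 genes, from TMEM39B to LCK, each held at least 46 counts, over 203 kb. Of these exons, 49 held 46 or 47. The stretch ended with the last exon of LCK, and the first exon of HDAC1, the next gene, held 1 count. Control 2 had a like shape at a lower level, with 2 to 4 counts on each LCK exon, in a stretch of 69 exons of 9 genes. In Maltreated 3 the 19 LCK counts fell on 5 of 13 exons. How the deposited counts treat reads aligned across a long gap is not stated. In Control 1, 1 count covered all 650 bases of LCK exon 13. Whether the 113 CPM of LCK, or the equal C1q counts, are reads within these exons was not tested.

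**Figure D2:**
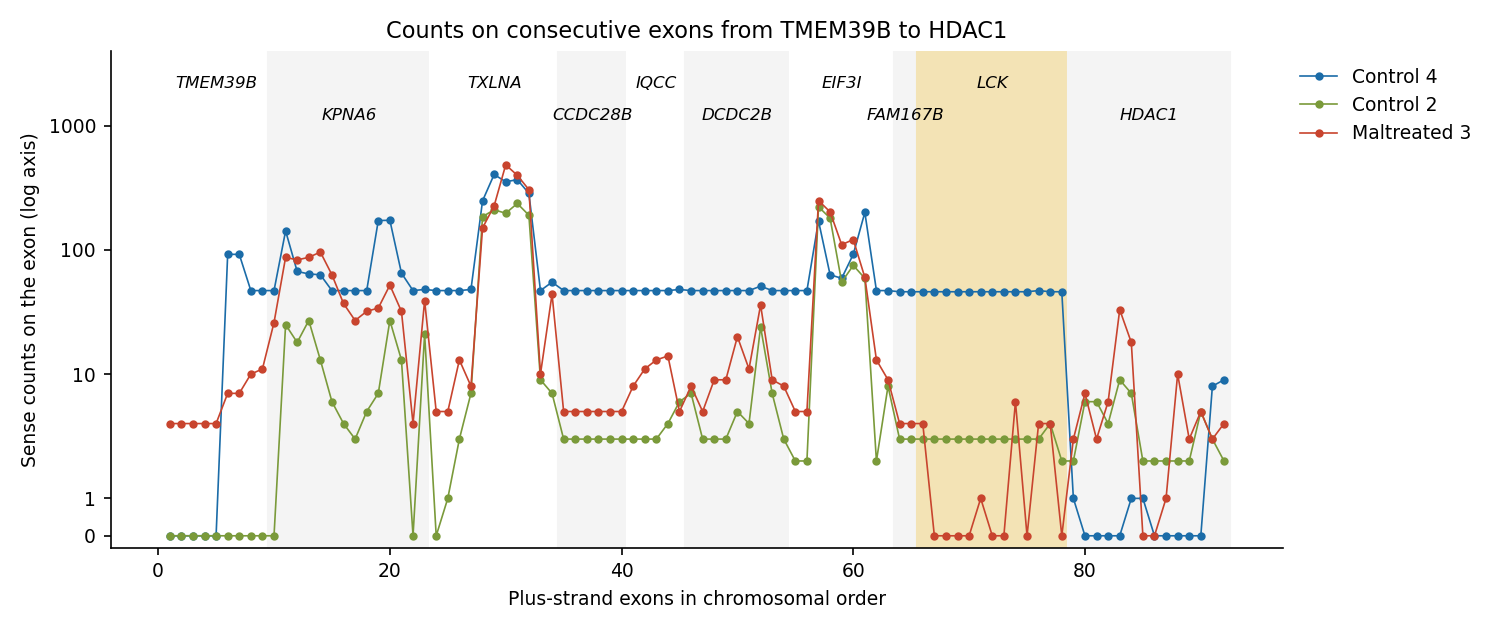
Sense counts (vertical, log axis, with 0 drawn at the foot) on consecutive plus-strand exons in chromosomal order (horizontal) from TMEM39B to HDAC1, with LCK shaded, in Control 4, Control 2 and Maltreated 3. The Control 4 line does not fall below 46 counts over 73 exons and drops to 1 count after the last exon of LCK.

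IL7R, the interleukin-7 receptor chain of naive and memory lymphocytes, had 1, 0, 1 and 102 counts in Control 1 to 4 and 0, 0 and 37 counts in Maltreated 1 to 3. Both high libraries stood alone, at 19.2 CPM and 3.46 CPM, and the other 5 held 2 counts in all. Against the level that 3 counts would have in Control 2, Control 4 was 35.4 times and Maltreated 3 was 6.38 times higher. IL7R (chr5:36202618-36224422, plus strand, 8 exons) had nearly all of its counts on its last exon, with 95 of 102 in Control 4, or 93.1% (86.4 to 97.2), and 30 of 37 in Maltreated 3, or 81.1% (64.8 to 92.0). In Control 4 exons 1 to 7 held 1 count each, and 62 antisense counts lay on exon 8 beside the 95 sense counts. With antisense counts added to every library, IL7R was no longer high in Maltreated 3.

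CCR7, the chemokine receptor that brings T cells and dendritic cells to lymph nodes, had 0, 1, 1 and 59 counts in Control 1 to 4 and 5, 1 and 4 counts in Maltreated 1 to 3. Control 4 alone was high, at 11.1 CPM against 0 to 0.374 CPM elsewhere. Of its 59 counts, 51 lay on exon 3 of CCR7 (chr17:48387890-48399609, minus strand), where they covered 202 of 2050 bases.

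Of 23 T cell genes beside LCK, IL7R and CCR7, some with fewer than 10 counts, 3 were high in Control 4 and 0 in Maltreated 3. The shares of all genes with 10 counts there were 15.2% and 5.86%. The 3 were CD3E, CD8A and ZAP70. CD3E, a chain of the T cell receptor complex, had 17 counts all on 1 of 8 exons. CD8A, a co-receptor, had 59 counts on 5 of 10 exons. ZAP70, a kinase, had 21 counts with an even share of 93.8%, and it was not high on counts above the lowest exon. CD3D, CD3G and CD247, further chains of the receptor complex, and SIT1 had no count in either library. A count of 0 allows up to 0.564 CPM in Control 4 and 0.281 CPM in Maltreated 3. The whole list summed to 216 CPM in Control 4, of which LCK made up 52.2%. Without the 3 members it summed to 73.0 CPM in Control 4 and 83.3 CPM in Maltreated 3, within the 56.8 to 114 CPM of the other 5.

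CSF3R, the receptor for granulocyte colony-stimulating factor, had 0, 7, 1 and 163 counts in Control 1 to 4 and 58, 16 and 50 counts in Maltreated 1 to 3. Control 4 was high at 30.7 CPM, against 0 to 4.68 CPM in the other libraries, and the groups overlapped. The counts of CSF3R (chr1:35443747-35460910, minus strand, 18 exons) took a different form in each library. In Control 4, 57 counts lay on exon 16 and 57 on exon 17, over 71 and 26 bases, and 39 lay on 102 bases of exon 1. In Maltreated 1 every one of the 18 exons held 3 to 5 counts, every base was covered, and the even share was 93.1%. These exons lay in a stretch of 38 exons of 5 genes that each held at least 3 counts. In Maltreated 2 all 16 counts were on exon 8. In Maltreated 3, 19 counts lay on each of exons 1 and 2 and 10 on exon 11.

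Some granulocyte genes beside CSF3R were high in Maltreated 3. Of 23 such genes, 1 was high in Control 4 (MMP8, with 28 counts on 1 of 10 exons) and 5 in Maltreated 3. The shares of all genes with 10 counts there were 15.2% and 5.86%. The gelatinase gene MMP9 had 152 CPM in Maltreated 3, the Fc receptor genes FCGR3B and FCAR had 89.7 and 29.1 CPM, and LCN2 and MNDA were the remaining ones. Without CSF3R the list summed to 43.6 CPM in Control 4, within the 4.06 to 54.8 CPM of the other 5, and to 290.2 CPM in Maltreated 3. CXCR2, FPR1, FPR2, S100A12, CTSG and ARG1 had no count in either library.

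PAX5, the transcription factor that holds B cells in their lineage, had 26, 9, 1 and 83 counts in Control 1 to 4 and 86, 30 and 17 counts in Maltreated 1 to 3. Control 4 was the highest at 15.6 CPM, followed by Maltreated 2 at 4.87 CPM, and the groups overlapped. In Control 4 the counts of PAX5 (chr9:63915802-64111630, minus strand, 10 exons) lay on 2 exons, 50 on 98 bases of exon 7 and 33 on 101 bases of exon 1. In Maltreated 1 they lay on 9 of 10 exons. Maltreated 3 held 45 antisense counts in PAX5, 5 on each of exons 1 to 9, beside 17 sense counts. Of 18 other B cell genes, 1 was high in Control 4 (BLNK, a signalling adaptor) and 4 in Maltreated 3 (CD22, CD72, BTK and BLNK). The shares of all genes with 10 counts there were 15.2% and 5.86%. MS4A1, CD79B and TNFRSF13C had no count in either library. CD22 had an even share of 88.4% in Maltreated 3 and was not high there on counts above the lowest exon. Without PAX5 the list summed to 24.8 and 35.3 CPM, within the 12.9 to 57.8 CPM elsewhere.

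KLRD1, the CD94 subunit of natural killer cell receptors, had 7, 2, 0 and 27 counts in Control 1 to 4 and 35, 0 and 9 counts in Maltreated 1 to 3. Control 4 was the highest at 5.08 CPM, followed by Maltreated 1 at 1.14 CPM, although Maltreated 1 held more counts. Of the 27 counts in Control 4, 26 lay on 22 bases of exon 1 of KLRD1 (chr12:10647601-10659674, plus strand, 7 exons). Of 21 other natural killer cell genes, 2 were high in Control 4 (GZMB and NCR1) and 0 in Maltreated 3. The shares of all genes with 10 counts there were 15.2% and 5.86%. NCR1 had an even share of 100% in Control 4 and was not high there on counts above the lowest exon. KLRB1, GZMA, GZMH, NCR3 and XCL1 had no count in either library. Without KLRD1 the list summed to 84.8 CPM in Control 4 and 201 CPM in Maltreated 3, and to 5.52 to 532 CPM elsewhere. KLRC3, a lectin-like receptor gene with near-identical relatives, alone had 154 CPM in Maltreated 3 and 499 CPM in Control 3, which set the upper end.

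**Figure D3:**
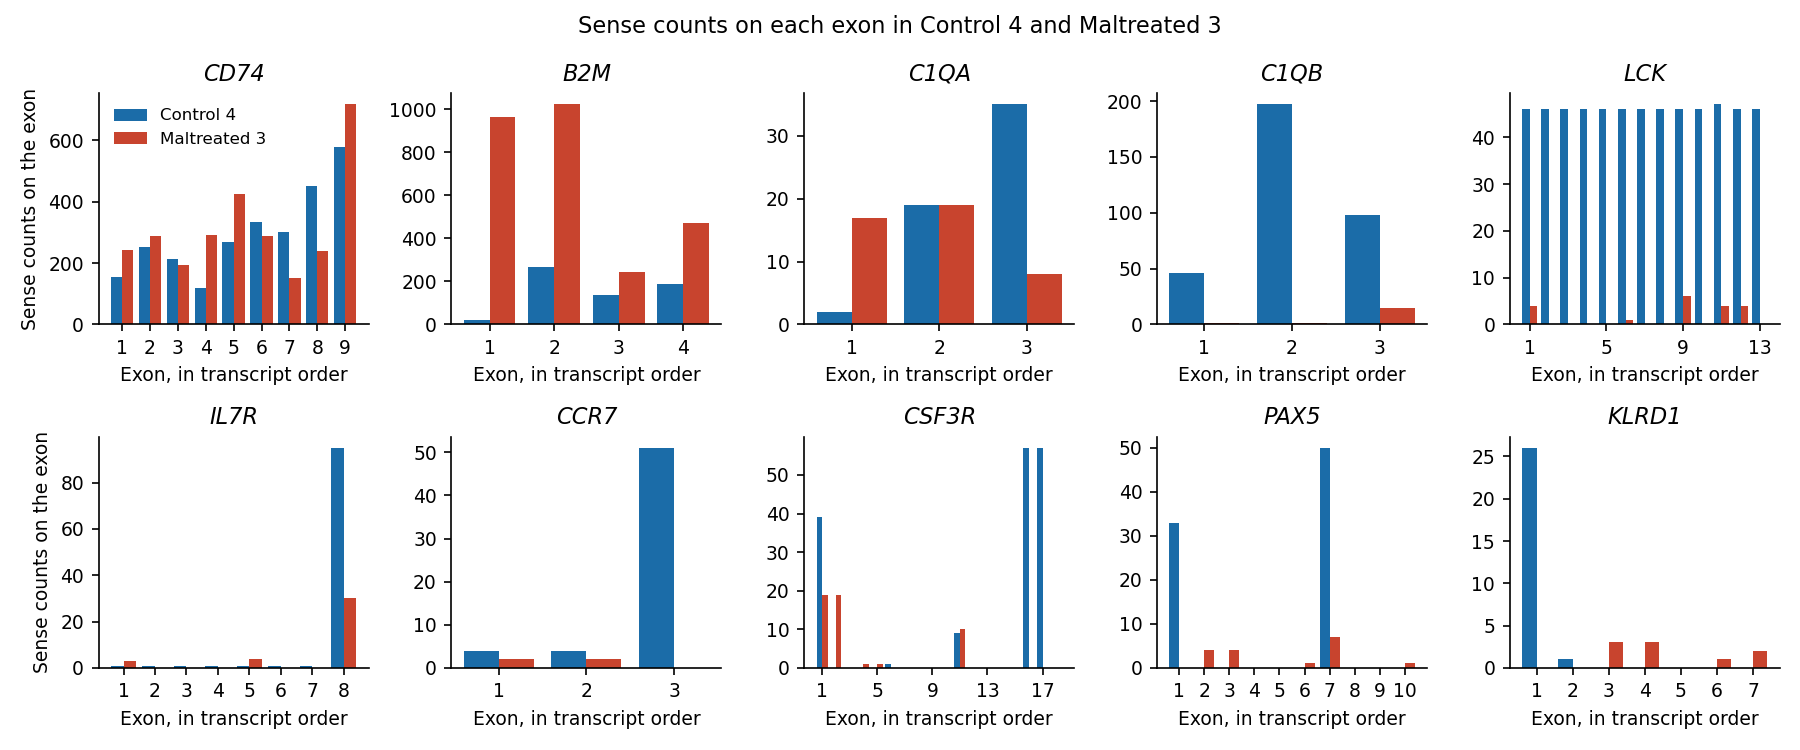
Sense counts (vertical, linear, with its own scale in each panel) on each exon in transcript order (horizontal) of the 10 genes in Control 4 (blue) and Maltreated 3 (red). CD74 and B2M have counts on every exon in both libraries, LCK has 46 or 47 on each exon in Control 4, and the counts of PAX5 and KLRD1 in Control 4 stand on 2 exons each.

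The 10 genes fell into 3 shapes in Control 4. CD74, B2M, C1QA and C1QB had counts that covered 84.0 to 100% of their exon bases, at unequal levels between exons. C1QA and C1QB were also covered to 100% in Control 1, with 6 counts each, so their full cover does not set Control 4 apart. LCK was covered throughout at 1 level. CCR7, CSF3R, PAX5 and KLRD1 had 27 to 163 counts over 2.21 to 13.7% of their exon bases. IL7R stood between, with every base covered and 93.1% of its counts on 1 exon. Its exons ended a stretch of 35 exons of SPEF2 and IL7R with at least 1 count each, of which 27 held exactly 1. Every exon in every library was then reduced to its count above the lowest exon of the gene. By this measure 8 of 10 remained high in Control 4 and 3 in Maltreated 3. The shares of all genes with 10 such counts there were 15.7% and 5.83%. LCK was the gene lost in Control 4. CD74 had 299 CPM in Control 4 and 138 CPM in Maltreated 3 on these counts, and B2M had 100.1 and 162 CPM.

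The high genes of the lists beside the 10 differed between the libraries in their counts and in the share of exon bases covered. That share need not measure how far reads spread, since 1 count covered all 2098 bases of PAX5 exon 10 in Control 2. In Control 4, 33 further list entries were high, with a median of 86 counts and a median of 21.4% of their exon bases covered, and 5 had all counts on 1 exon. In Maltreated 3, 44 were high, with a median of 186 counts and 81.3% covered, and 0 had all counts on 1 exon. On counts above the lowest exon 6 of the 33 and 7 of the 44 were no longer high. In Control 4 these were RFX5, LGMN, C1S, ZAP70, NCR1 and TYROBP. In Maltreated 3 they were IFI30, MAMU-F, CALR, C7, CD22, ITGAM and CD48. The depth of the 2 libraries differs, and its part in these shares was not tested.

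Of 15 monocyte and macrophage genes, 8 were high in Maltreated 3 and 2 in Control 4, beside 5.86% and 15.2% of all genes with 10 counts there. TYROBP, an adaptor of myeloid receptors, and TREM2, a lipid receptor, were high in both. In Control 4 the 48 counts of TREM2 all lay on 98 bases of 1 of its 5 exons. TYROBP had 29.3 CPM in Control 4 and 43.0 CPM in Maltreated 3, and at most 0.724 CPM elsewhere, but in Control 4 its even share was 80.8% and it was not high on counts above the lowest exon. The lysosomal glycoprotein gene CD68 had 390.2 CPM in Maltreated 3, 18.4 CPM in Control 4, where it was not high, and at most 9.33 CPM in the other 5 libraries. The list summed to 155 CPM in Control 4 and 920 CPM in Maltreated 3, against 20.3 to 60.6 CPM elsewhere, and no gene of it was at 0 in both. Of 13 pan-leukocyte genes 4 were high in Control 4 and 6 in Maltreated 3, beside the same 15.2% and 5.86%. CD53, high in both, had 23 counts in Control 4, all on 2 bases of 1 exon. The list summed to 198 and 513 CPM, with 52.2 to 1073 CPM elsewhere. The highest of these sums was that of Control 3, where VAV1, a signalling protein of blood cells, alone had 1047 CPM. Sperm genes summed to 47588 and 48972 CPM, at the low end of the 47149 to 100365 CPM elsewhere. The part of leukocytes in the levels of the 10 genes was not tested.

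**Figure D4:**
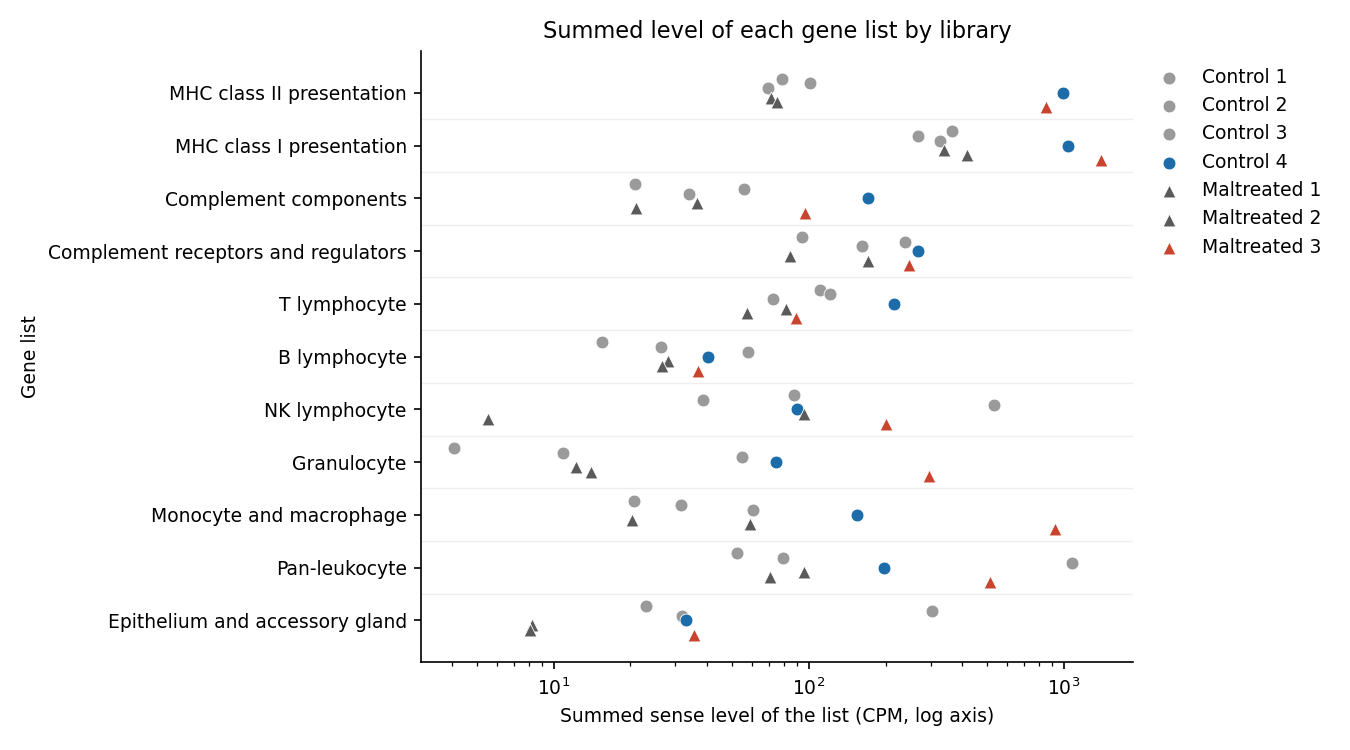
Summed sense level in CPM (horizontal, log axis) of each gene list (vertical), members included, with 1 point per library, circles for Control and triangles for Maltreated. Control 4 (blue) and Maltreated 3 (red) lie apart from the others for both MHC lists, at 848 to 1393 CPM, and within or near them for B and natural killer cell genes.

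The comparison of Maltreated with Control sperm placed none of the 10 genes past the test. With edgeR's quasi-likelihood test and Benjamini-Hochberg adjustment, 0 of 10719 tested genes passed (0.00%), the smallest adjusted p was 0.999, and 191 genes had an unadjusted p under 0.05. DESeq2's Wald test called 3 genes (0.0280%) and 0 of the 10. Of the 10 genes 7 had enough counts to be tested, and IL7R, CCR7 and KLRD1 did not. Of the 7, 1 was higher and 6 were lower in Maltreated sperm, beside 51.3% of all tested genes that were lower. The groups overlapped for all 10, while 3.59% of tested genes had groups that did not.

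The fold changes of the members rested on the 2 libraries. For CD74 the log2 ratio of Maltreated to Control was -0.62 ± 1.99 (SE), and it was 4.33 without Control 4 and -6.13 without Maltreated 3. For B2M it was 1.42 ± 1.55, and 4.33 and -1.66 without these libraries. With both left out, CD74 stood at -1.19 ± 1.5 (SE) and B2M at 1.21 ± 1.25, both within 1 SE of 0.

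The fold changes of C1QB, C1QA, CSF3R and PAX5 changed sign without Control 4, the library in which each was highest. C1QB had a log2 fold change of -3.70 ± 1.82 (SE), which was 0.11 without Control 4, and C1QA had -0.88 ± 1.66, which was 0.78 without it. CSF3R went from -1.41 ± 1.80 to 2.65 ± 1.56 without Control 4, and PAX5 from -0.68 ± 1.36 to 0.99 ± 1.25. LCK had -5.01 ± 1.87, and -1.66 ± 1.45 without Control 4. On exon counts above the lowest exon LCK, C1QA and C1QB no longer had enough counts to be tested.

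The lists around the members gave no call either. Of the class II genes beside CD74, 5 were tested, 3 were higher and 2 lower, with a median log2 fold change of 0.64 beside -0.018 for all tested genes. Of the class I genes beside B2M, 10 were tested with a median of 0.37. Of the complement components 7 were tested with a median of -0.097, and of the T cell genes 6 with a median of -1.20. All 9 tested monocyte and macrophage genes were higher, with a median of 1.28, while 51.3% of all tested genes were lower. Of the 4 tested granulocyte genes 3 were higher and 1 lower, with a median of 3.35. The 8 tested pan-leukocyte genes had a median of 1.20. Medians were -0.76 for 3 B cell genes and -0.50 for 4 natural killer cell genes. They were -0.28 for 11 complement receptors and regulators and -2.36 for 4 epithelium and accessory gland genes. These medians include Control 4 and Maltreated 3.

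The genes whose pattern over the 7 libraries was most like that of each member were found by the root mean square difference of centred log2 CPM, in which 0 is an identical pattern. For CD74 these were CTSB, a lysosomal protease (0.90), ITGAX, an integrin chain of myeloid cells (1.03), and LAPTM5, a lysosomal protein of leukocytes (1.06), beside a median of 3.46 over all tested genes. For B2M they were GBP1, an interferon-inducible GTPase (0.65), TGFBI, an extracellular matrix protein (0.73), and CCR1, a chemokine receptor (0.76), beside a median of 2.83. CTSB had 235 CPM in Control 4 and 687 CPM in Maltreated 3, and at most 6.66 CPM elsewhere.

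The remaining tested members had other neighbours. For C1QB they were TMEM218 (0.59), TNFRSF1A, a tumour necrosis factor receptor (0.70), and MPP3 (0.71). LCK had THBS2 (0.81) and NPHS1 (0.90), which are not T cell genes. C1QA had CEBPB (0.50), TTL (0.57) and NR4A3 (0.60), CSF3R had ZXDC (0.66), TET2 (0.69) and KAT2A (0.72), and PAX5 had CDH8 (0.29), TMEM31 (0.31) and EXOSC8 (0.40). These likenesses share 7 libraries, of which 1 or 2 set the pattern.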

How the data were processed

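Total RNA-seq libraries of sperm from 4 Control and 3 Maltreated animals were grouped by their labels. The authors used STAR, featureCounts and bedtools, per the submitters' processing notes. No version, build or read length is given in the sources used here. The deposited exon files hold the read count per exon and strand and the fraction of exon bases covered, with no normalisation, per the file layout. The deposited series table holds the same counts and covered fractions per gene, split into sense and antisense. Its counts equalled the exon sums in 7 of 7 libraries. How reads spanning several exons were counted is not stated, and 18.4% of exon entries repeat an exon of the same gene. Of 18284 genes, 2 listed on both strands were left out. Exons are numbered in transcript order.

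CPM used the total sense counts. The group test was edgeR 4.0.16 under R 4.3.3 (TMM, filterByExpr with minimum count 10 and minimum total 15, quasi-likelihood F test, Benjamini-Hochberg, threshold 0.05), and the script was tested on simulated data. The members and lists were chosen with earlier results of these data known. Named are the 10 members, the 3 highest genes of each list in each of the 2 libraries, the 3 genes most like each tested member (prior count 2), and PRM1, PRM2 and TNP1. Further list genes are named from those that were high or at 0, and C1QC as the third C1q chain, after their values were seen. A gene that the rule names for LCK is not reported here. Alternatives were DESeq2 1.42.0 size factors or its Wald test, total counts, other filters, a block on the replicate number, sense plus antisense counts, unique exons, other thresholds for high, and libraries left out. Exon counts above the lower neighbour or the lowest exon were added to the fits after seeing the data. Promoter and other sequences were not analysed here.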

Additional observations from a re-analysis of the deposited data

Results flagged for a closer look

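In the Control group, 1 library stood apart from the other 3 for 9 of the 10 genes, by the gap to the nearest library over the range of the group, and it was Control 4 each time. The rule is set to mark about 5% of groups by chance, and the share of all genes that it marks was not computed. These genes were chosen for their level in this library, so nothing is read from the 9. The levels in Control 4 were 502 CPM for CD74, 115 CPM for B2M, 64.1 CPM for C1QB and 113 CPM for LCK. They were 19.2 CPM for IL7R, 11.1 CPM for CCR7, 30.7 CPM for CSF3R, 15.6 CPM for PAX5 and 5.08 CPM for KLRD1. C1QA, at 10.5 CPM, was not marked. The Maltreated group, with 3 libraries, is too small to be marked.

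Antisense counts, which the levels above do not use, were marked at C1QB and PAX5, where Maltreated libraries exceeded Control. C1QB held 16 antisense counts in Maltreated 1 and 12 in Maltreated 3, and 0 in the 4 Control libraries. PAX5 held 45 in Maltreated 3, 4 in Maltreated 1 and 1 in all Control libraries together. Other members had more in Control: IL7R held 63 antisense counts in Control 4 and 4, 0 and 0 in Maltreated 1 to 3. CCR7 held 12 in Control 3 and 5 in Control 4 and 0 in the Maltreated libraries, and CD74 was highest in Control 4 at 58.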

How the results depend on the processing

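With edgeR the count of called genes was 0 under every scaling, filter and counting alternative run and ranged from 0 to 0 with each library left out in turn. DESeq2's Wald test called 3, all lower, with 327 genes at an unadjusted p under 0.05. With 10 times as the threshold for high, 1 gene (CD74) was high in both libraries, 6 in Control 4 and 2 in Maltreated 3. Leaving out each of the other 5 libraries gave 9 to 10 high genes in Control 4, 3 in Maltreated 3 and 3 in both, and PAX5 was added without Maltreated 2. With antisense counts added, 2 were high in Maltreated 3. Of 118 fold changes of members over all alternatives, 18 moved by over 1 SE and 14 had the other sign. Among libraries left out singly, these signs turned only without Control 4 or Maltreated 3.

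The replicate numbers did not pair the libraries: same-numbered libraries deviated with correlations of 0.075, 0.0099 and -0.019. A replicate block gave 0 calls, and 275 genes at an unadjusted p under 0.05 against 191. Control 4 has no partner in it, and CD74 then had a log2 fold change of 1.87 and LCK of -0.94. Control 4 has the lowest depth, where 3 counts equal 0.564 CPM.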
